A study of Mus musculus with 48 samples.

Results

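Matrix metalloproteinases are zinc-dependent endopeptidases that cut collagens, elastin, laminins and many cytokines and receptors, and their tissue inhibitors, the TIMPs, bind the active site and block it. The 8 genes described here, Mmp9, Mmp12, Mmp13, Mmp14, Mmp19, Mmp25, Timp1 and Timp2, are 6 proteases and 2 inhibitors out of 15591 genes tested. Each was represented by a single probe set whose annotation names that gene alone, and all 8 passed the filter on low values, a log2 value above 3.77 on at least 3 arrays. They were followed over all 48 arrays of a study of mononuclear phagocytes in mouse ear skin, which fall into 16 groups of 3.

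The mice were 8 to 11 weeks old, and their strain is not given. Treated ears received 5% imiquimod cream (Aldara, 7 mg of imiquimod per ear side) every day of a 14-day course, which gives a psoriasis-like inflammation, and cells were sorted at day 5 or day 11. Reference ears were untreated, and no vehicle cream group was analysed here. The 6 sorted populations were dermal monocytes (CD11b+CD64lowCCR2+Ly-6ChiMHCIIlow), monocyte-derived dendritic cells with high Ly-6C (CD11b+CD64lowCCR2+Ly-6ChighMHCII+), MHCIIlow and MHCIIhi dermal macrophages (both CD11b+CD64hiCCR2lowLy-6Clow), CD11b+ conventional dendritic cells (CD11b+CD64-Ly-6C-MHCII+CD24-) and epidermal Langerhans cells (CD11b+MHCII+CD24+). There are day 5 but no day 11 monocytes here, and day 11 but no day 5 MHCIIhi macrophages; each of the remaining 4 populations has all 3 stages. Hereafter the monocyte-derived dendritic cells are called moDCs and the conventional ones CD11b+ DCs. Skin was digested with dispase either warm or cold overnight, and the temperature used for each sample is not given. Whether the 3 samples of a group are different animals is not given, so p-values measure only the spread between these samples, and their small number limits the precision.

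Most of these enzymes are secreted as inactive proenzymes, while Mmp14 and Mmp25 stay on the cell surface. In skin they open basement membrane and collagen to migrating cells, and Langerhans cells are known to use gelatinase activity to leave the epidermis. TIMPs also have roles of their own, such as the complex of Timp2 with Mmp14 that activates the gelatinase encoded by Mmp2.

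The arrays were alike in overall level, with medians of 4.10 to 4.37 on the log2 scale and correlations within groups of 0.926 to 0.988, and 43 of 48 matched their own group best. A list of 5 Langerhans cell markers averaged 10.73 to 11.09 on the Langerhans arrays and 4.88 to 9.09 elsewhere. A list of 9 macrophage markers averaged 10.03 to 10.81 on the macrophage arrays, and one of 6 monocyte markers 10.28 to 10.82 on the monocyte arrays. The neutrophil list was at 3.66 to 4.21 on every array. A pair of arrays was treated as standing apart from their groups. On untreated monocyte replicate 2 the fibroblast list averaged 10.01 against 6.52 and 7.39 on the other 2, and its mean correlation with its group was 0.932. CD11b+ DC day 11 replicate 2 had the lowest such correlation in its group, 0.945 against 0.961 and 0.964. Its Langerhans list averaged 7.34 against 9.09 and 8.08, a spread that does not single it out. Untreated monocyte replicate 4, with a correlation of 0.940, was not set apart. Without both arrays 69 of the 70 calls among the 8 genes were kept and 12 were gained. The calls gained or lost are given with the gene or the response difference they belong to. The letter in the sample titles changes with stage in the dermal populations, so a batch following it cannot be told apart from treatment there. Untreated and day 5 Langerhans samples share the first letter F, while those at day 11 carry G. The other untreated populations carry B. A batch following the letter therefore cannot be told apart from population where untreated Langerhans cells are compared with the others, which includes the response differences.

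The changes of these genes under imiquimod differed between populations. In Langerhans cells Mmp9 fell while Mmp19, Mmp25, Timp1 and Timp2 rose, at both day 5 and day 11. In moDCs, both macrophage populations and CD11b+ DCs, Mmp14 rose at every stage measured. Mmp13 passed in no population, with 0 of 10 comparisons under 0.05 in limma after adjustment and 0 before it. Over the 10 comparisons of imiquimod-treated with untreated cells, 24 of 80 gene-comparison pairs passed limma's moderated test at a Benjamini-Hochberg adjusted p under 0.05, 16 higher and 8 lower, against 12.3% over all genes. Since each sample is a bulk of sorted cells, fewer cells of a type and less RNA per cell cannot be told apart in any of these results.

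By population, 5 of the 8 genes passed in Langerhans cells at day 5 (16.1% of all genes did) and the same 5 at day 11 (17.7%). In dermal monocytes at day 5 it was 1 of 8 (12.7% of all genes). At day 5 it was 1 of 8 in moDCs (11.3% of all genes), 1 of 8 in MHCIIlow macrophages (14.2%) and 2 of 8 in CD11b+ DCs (7.98%). At day 11 it was 2 of 8 in moDCs (8.42% of all genes), 2 of 8 in MHCIIlow macrophages (9.72%), 3 of 8 in MHCIIhi macrophages (14.9%) and 2 of 8 in CD11b+ DCs (10.3%). A count of 1 among 8 is close to these backgrounds and is no result about the family. Comparisons of day 5 and of day 11 with untreated cells share their untreated samples. Between the treated stages 2 of 32 pairs passed, both lower at day 11, against 1.14% over all genes.

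**Figure D1:**
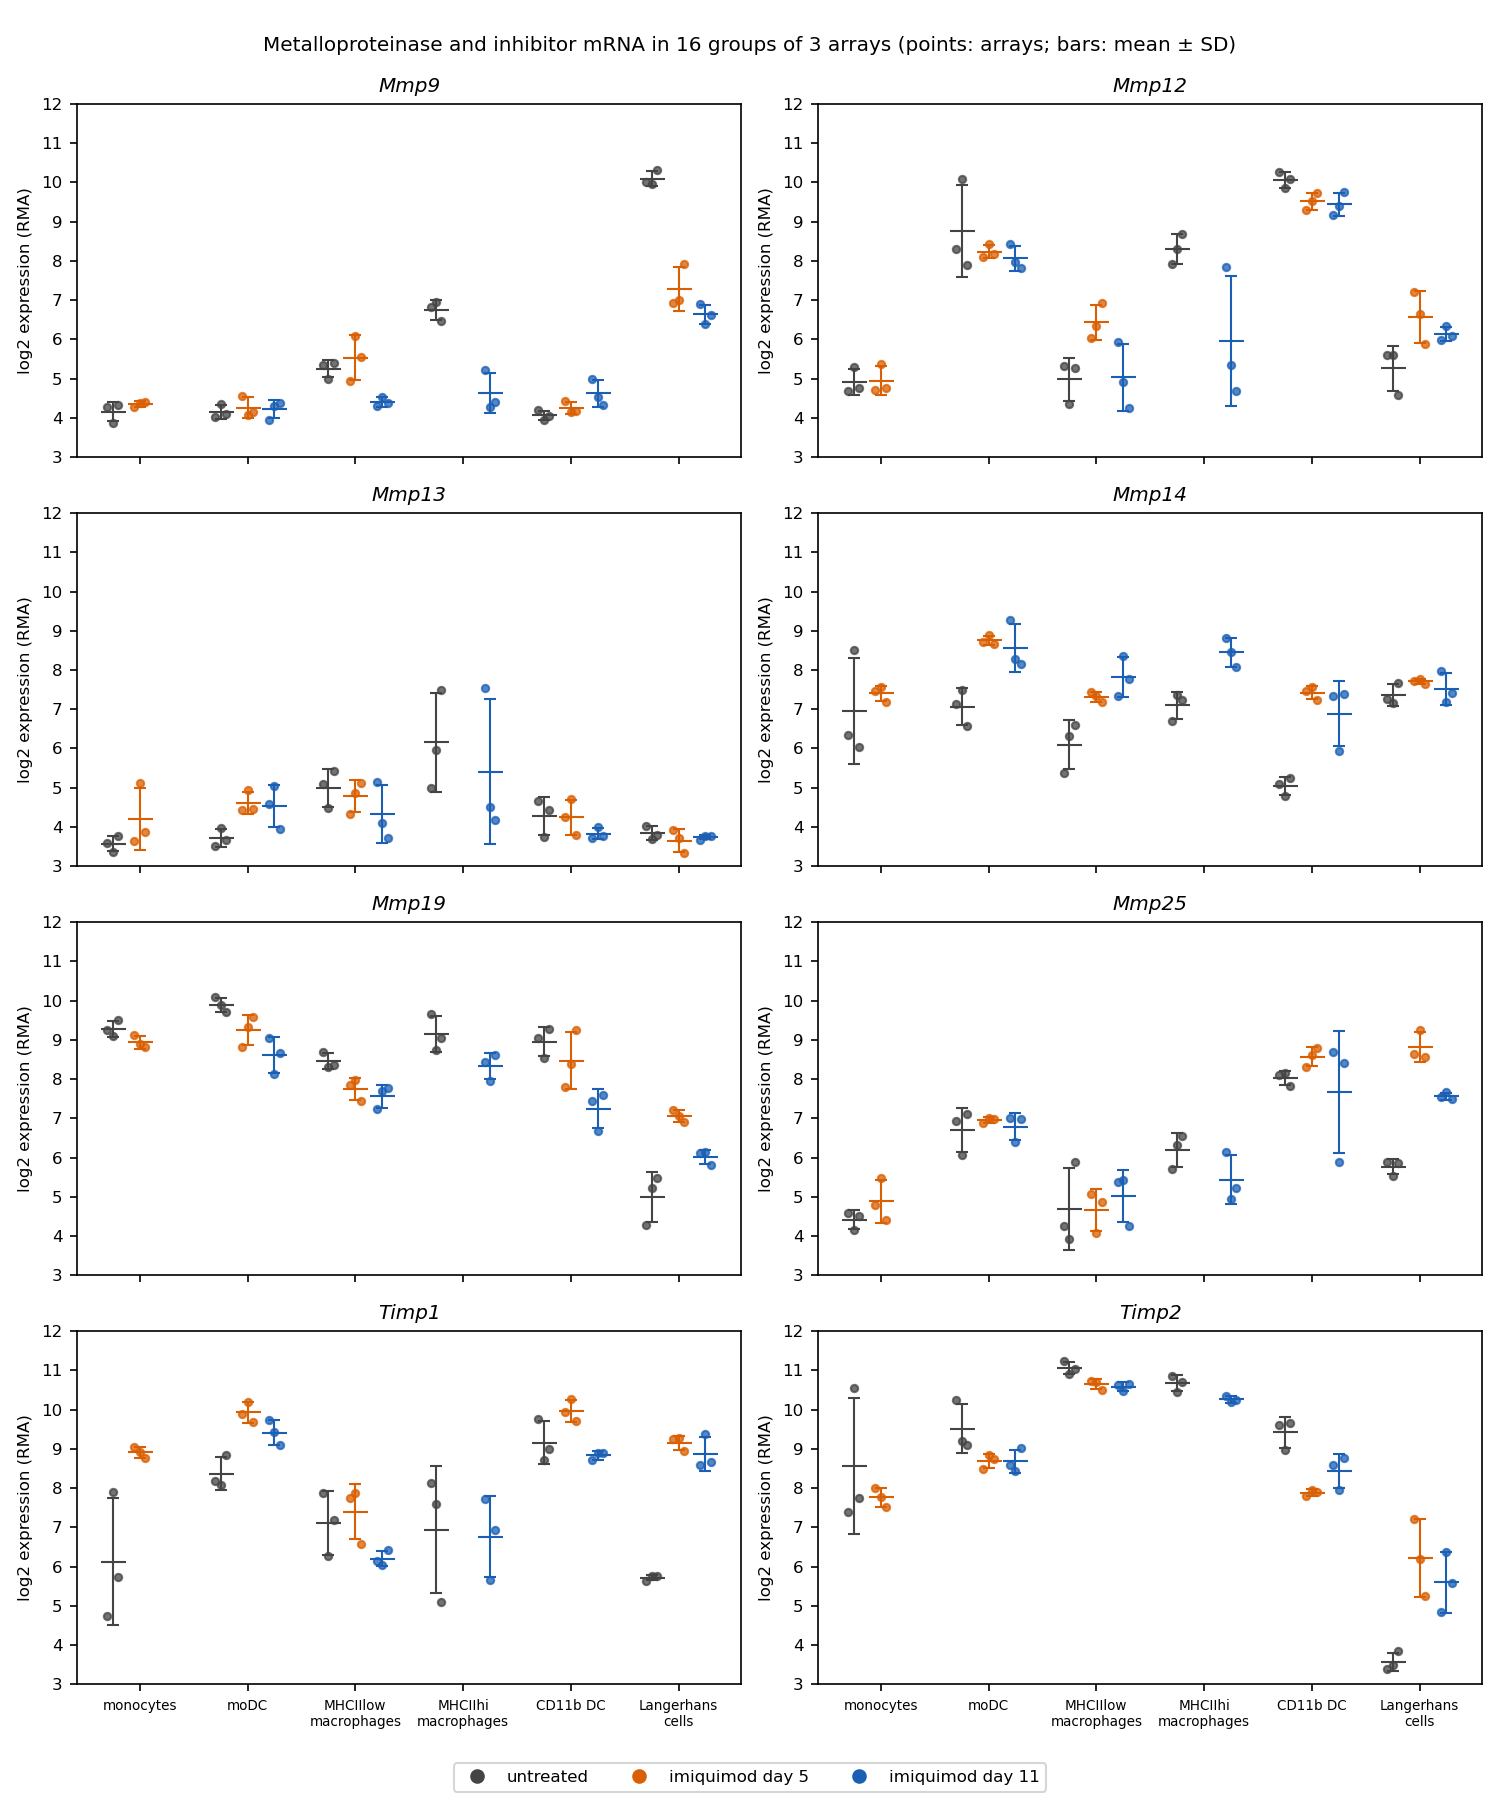
Level of each gene (vertical axis, log2 expression; 1 panel per gene) by population (horizontal axis) and stage (colour), with points for arrays and bars for the mean ± SD of 3 arrays. Mmp9 averages 10.10 in untreated Langerhans cells, above every other group, and Timp2 averages 3.57 in the same cells, below every other group.

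Mmp9, the secreted gelatinase B that cuts denatured collagen and basement membrane collagen, was highest in Langerhans cells. Its log2 levels in Langerhans cells were 10.02, 9.96 and 10.32 untreated, 6.93, 6.99 and 7.93 at day 5, and 6.90, 6.40 and 6.62 at day 11. All 6 treated arrays lay below all 3 untreated ones. Mmp9 fell 7.03-fold at day 5 (log2 change -2.81 ± 0.25 (SE), adjusted p = 2.93e-11) and 11.0-fold at day 11 (-3.46 ± 0.25, adjusted p = 2.06e-13).

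MHCIIhi macrophages showed the same direction from a lower level. Mmp9 was at 5.22, 4.29 and 4.42 in MHCIIhi macrophages at day 11, against 6.83, 6.94 and 6.46 untreated. The groups did not overlap, and the change was -2.10 ± 0.25 (adjusted p = 1.56e-07). In the same MHCIIhi arrays a list of 9 dendritic cell markers averaged 7.00 to 7.47 at day 11, against 7.84 to 8.20 untreated, with 3 of 9 lower (Flt3, Cd209a and Clec10a). The 10 keratinocyte markers averaged 8.72 against 7.68, with 4 of 10 higher, and 1 of 6 monocyte markers, Ccr2, was lower. The part of these transcripts in the fall was not tested. MHCIIlow macrophages had 4.29, 4.54 and 4.39 at day 11, against 5.36, 5.00 and 5.41 untreated, a fall of 1.80-fold (-0.85 ± 0.25, adjusted p = 0.0212). This smaller call was lost when untreated replicate 1 (adjusted p = 0.0739) or 4 (0.0851), or day 11 replicate 1 (0.0821) or 3 (0.0627), was left out, with changes of -0.80, -0.77, -0.79 and -0.84. In MHCIIlow macrophages Mmp9 was also lower at day 11 than at day 5, where it had 4.95, 6.10 and 5.54 (-1.12 ± 0.25, adjusted p = 0.017). That was the only one of the 8 genes to differ between these stages in MHCIIlow macrophages, where 0.481% of all genes did. It did not hold without day 5 replicate 3 (-0.84, adjusted p = 0.317) or 4 (-1.12, 0.0741), or without day 11 replicate 1 (-1.07, 0.108) or 3 (-1.12, 0.0791), nor with only the groups compared in the fit (-1.12, 0.16). In monocytes, moDCs and CD11b+ DCs the Mmp9 groups had means of 4.06 to 4.62, and changes of 0.07 to 0.56 did not pass.

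Ordered by mean, Mmp9 was highest in untreated Langerhans cells, followed by day 5 Langerhans cells (7.29), untreated MHCIIhi macrophages (6.74) and day 11 Langerhans cells (6.64), whose arrays overlapped from neighbour to neighbour. The remaining 12 groups began at 5.53 in day 5 MHCIIlow macrophages and overlapped in the same way down to 4.06. Against the mean of the other 5 untreated populations, untreated Langerhans cells had 10.10 against 4.87 (5.23 ± 0.19, adjusted p = 7.85e-23). Untreated MHCIIhi macrophages had 6.74 against 5.55 (1.20 ± 0.19, adjusted p = 2.11e-05), although that average holds the Langerhans level. In the untreated state 28 of 48 gene-population pairs passed, 14 higher and 14 lower, against 15.2% over all genes. By population this was 5 of 8 in monocytes (18.4% of all genes), 3 in moDCs (4.02%), 4 in MHCIIlow macrophages (15.4%), 5 in MHCIIhi macrophages (7.91%), 5 in CD11b+ DCs (13.1%) and 6 in Langerhans cells (32.6%).

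Mmp12, the macrophage elastase, was highest not in macrophages but in CD11b+ DCs. Its levels there were 10.26, 9.85 and 10.09 untreated, 9.30, 9.52 and 9.73 at day 5, and 9.16, 9.41 and 9.75 at day 11. The untreated arrays all lay above the treated ones, but the changes of -0.55 ± 0.51 and -0.63 ± 0.51 did not pass (adjusted p = 0.601 and 0.508). Untreated CD11b+ DCs stood at 10.07 against 6.44 in the mean of the other 5 populations, 12.3-fold higher (3.62 ± 0.40, adjusted p = 1.43e-08).

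moDCs came next, at 8.30, 10.10 and 7.88 untreated, a group spread widely by replicate 2. The difference of untreated moDCs from the other populations (2.05 ± 0.40, adjusted p = 0.000923) was lost without that replicate (1.39, adjusted p = 0.0723). Of the 10 imiquimod comparisons, Mmp12 passed in MHCIIhi macrophages alone, with 7.85, 5.33 and 4.69 at day 11, against 7.92, 8.30 and 8.69 untreated (-2.34 ± 0.51, adjusted p = 0.00135). Day 11 replicate 1 was close to the untreated arrays, and it also had the lowest level of the 10 keratinocyte markers in its group, 8.25 against 8.74 and 9.17. It had the highest monocyte list as well, 5.74 against 5.32 and 5.18. On the untreated arrays the keratinocyte markers, at 7.08, 7.45 and 8.52, rose in the same order as Mmp12. The part of any of those markers in the result was not tested. In Langerhans cells at day 5 (6.57 ± 0.67 against 5.26 ± 0.58 untreated, SD, n = 3 each) and in MHCIIlow macrophages at day 5 (6.44 ± 0.45 against 4.98 ± 0.54) the arrays did not overlap, with adjusted p = 0.0792 and 0.0516. With the replicate number as a block the second passed (1.62, adjusted p = 0.0322). It also passed with a stricter filter (0.0393), a trended robust variance (0.0497) and only the groups compared in the fit (0.0252). The first passed in that last fit alone (0.0493). The other settings, leaving out single arrays aside, brought neither past the threshold.

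The order of Mmp12 means ran from untreated CD11b+ DCs over 8.07 in day 11 moDCs and 6.57 in day 5 Langerhans cells to 4.91 in untreated monocytes. Single arrays of wide groups crossed every point of this order: untreated moDC replicate 2 lay among the CD11b+ DCs, and day 11 MHCIIhi macrophage replicate 1 among the moDCs. Untreated MHCIIhi macrophages were above the other populations at 8.30 against 6.80 (1.50 ± 0.40, adjusted p = 0.0117), which was lost without replicate 2 (1.51, adjusted p = 0.0523) or 4 (1.31, 0.111). Untreated MHCIIlow macrophages were below at 4.98 against 7.46 (-2.48 ± 0.40, adjusted p = 1.09e-05).

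Mmp13, the collagenase-3 that cuts fibrillar collagen, was low throughout, above the 3.77 threshold on 34 of 48 arrays. Its highest levels were in MHCIIhi macrophages, at 7.53, 4.52 and 4.18 at day 11, against 5.00, 5.97 and 7.49 untreated. A single array in each of these groups carried the high value, replicate 1 at day 11 and replicate 4 untreated, and the groups overlapped. Changes over the 10 imiquimod comparisons ran from -0.74 to 0.90 with an SE of 0.54. The 0.90 was in moDCs at day 5, where the arrays did not overlap (4.44 to 4.94 against 3.51 to 3.96 untreated). It passed with only the groups compared in the fit (adjusted p = 0.0495). Among untreated populations Mmp13 was higher in MHCIIhi macrophages than in the others, at 6.16 against 4.08 (2.08 ± 0.42, adjusted p = 0.000633), but not without replicate 4 (1.41, adjusted p = 0.0629). Neighbouring groups overlapped along the whole order of means.

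Mmp19, a secreted protease of basement membrane proteins that myeloid cells make, was lowest in Langerhans cells and rose there, where Mmp9 fell. Langerhans cells had 4.27, 5.23 and 5.49 untreated, 7.21, 7.07 and 6.90 at day 5, and 6.12, 6.13 and 5.81 at day 11. The 3 stages did not overlap, with day 5 highest. The rise was 4.17-fold at day 5 (2.06 ± 0.31, adjusted p = 2.68e-06) and 2.03-fold at day 11 (1.02 ± 0.31, adjusted p = 0.0153). The day 11 call was lost without untreated replicate 1 (0.66, adjusted p = 0.184) or day 11 replicate 2 (0.96, 0.0601). The step between the treated stages missed the threshold (-1.04 ± 0.31, adjusted p = 0.0672), but passed in a fit of only the groups compared (0.0343) and with array weights (-1.10, 0.00275).

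In dermal dendritic cells Mmp19 fell at day 11. moDCs had 9.05, 8.14 and 8.65 at day 11, against 10.08, 9.89 and 9.72 untreated (-1.28 ± 0.31, adjusted p = 0.00631). CD11b+ DCs had 7.45, 6.67 and 7.60 at day 11, against 9.04, 8.55 and 9.28 untreated (-1.71 ± 0.31, adjusted p = 0.000209). All 3 treated arrays were lower in both populations. The change in CD11b+ DCs was -1.43 (adjusted p = 0.00719) without both arrays that stood apart. Macrophages had lower values that missed the threshold, at -0.89 ± 0.31 in MHCIIlow cells (7.56 at day 11 against 8.45 untreated, adjusted p = 0.0597) and -0.82 ± 0.31 in MHCIIhi cells (8.34 against 9.15, adjusted p = 0.0666), with no overlap of arrays. Without both arrays that stood apart the first passed (adjusted p = 0.0464) and the second did not (0.0543). The first also passed with a stricter filter (0.0475), array weights (-0.82, 0.0473) and only the groups compared in the fit (0.0335). The second passed under quantile normalisation (-0.86, adjusted p = 0.0395). In MHCIIlow macrophages at day 5 the change of -0.70 passed with only the groups compared in the fit (adjusted p = 0.0471). CD11b+ DCs at day 11 were also below day 5, where the arrays read 7.79, 8.38 and 9.24 (-1.23 ± 0.31, adjusted p = 0.0376). It was the only one of the 8 to pass between stages in CD11b+ DCs, where 0.962% of all genes did. The call was lost without day 5 replicate 3 (-1.27, adjusted p = 0.0985) or 4 (-0.84, 0.366) or day 11 replicate 2 (-0.94, 0.371), the array that stood apart. It was also lost under median-centring (-1.24, adjusted p = 0.0552), array weights (-0.92, 0.125) and a fit of only the groups compared (-1.23, 0.507). In moDCs and Langerhans cells 0 of 8 passed between the stages in limma, where 1.01% and 2.12% of all genes did, although 1 and 3 of 8 had an unadjusted p under 0.05.

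Untreated moDCs held the highest Mmp19 mean, 9.89, and did not overlap the next group. From untreated monocytes (9.28) down to day 5 Langerhans cells (7.06) the groups overlapped in turn, and day 11 and untreated Langerhans cells lay below without overlap. Untreated Langerhans cells were 17.7-fold lower than the mean of the other populations (-4.15 ± 0.24, adjusted p = 4.11e-17), while untreated moDCs (1.73 ± 0.24, adjusted p = 5.74e-06) and monocytes (0.99 ± 0.24, adjusted p = 0.00231) were higher. MHCIIhi macrophages also passed as higher, but not without replicate 1 (0.58, adjusted p = 0.265) or 4 (0.88, 0.0613), nor with array weights (0.78, 0.0697). The averages behind these higher calls hold the Langerhans level of 5.00. Untreated monocytes overlapped untreated MHCIIhi macrophages (9.15) and CD11b+ DCs (8.96).

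**Figure D2:**
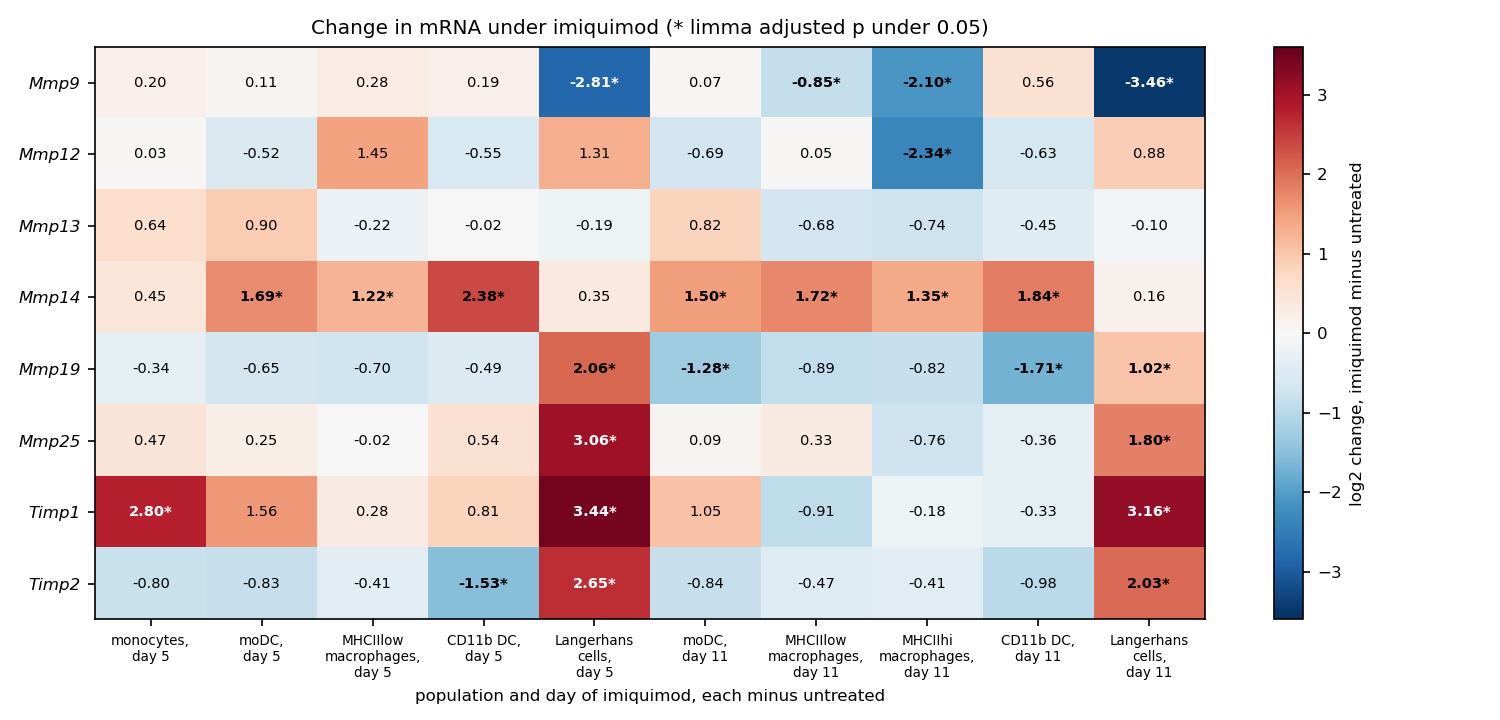
Log2 change in imiquimod-treated cells minus untreated cells for the 8 genes (down the side) in each population and stage (along the bottom), as colour and printed value, with an asterisk where limma's adjusted p was under 0.05. Mmp14 has an asterisk in 7 of 10 comparisons, all higher, and Mmp9 in 4 of 10, all lower.

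Mmp14, the transmembrane protease MT1-MMP that cuts collagen at the cell surface and activates other proenzymes, passed in 7 of 10 imiquimod comparisons, always higher. CD11b+ DCs had 5.08, 4.79 and 5.25 untreated, 7.47, 7.57 and 7.23 at day 5, and 7.34, 5.93 and 7.39 at day 11. Every treated array was above every untreated one, with replicate 2 at day 11 far below its group. The rise was 5.21-fold at day 5 (2.38 ± 0.41, adjusted p = 0.000147) and 3.59-fold at day 11 (1.84 ± 0.41, adjusted p = 0.00265). Without both arrays that stood apart the day 11 change was 2.32 (adjusted p = 9.59e-06).

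moDCs had 7.12, 7.50 and 6.57 untreated, 8.72, 8.88 and 8.67 at day 5, and 9.27, 8.28 and 8.15 at day 11. Again no treated array overlapped the untreated ones. The day 5 change was 1.69 ± 0.41 (adjusted p = 0.00632). The day 11 change was 1.50 ± 0.41 (adjusted p = 0.0169), and it was lost without untreated replicate 4 (1.26, adjusted p = 0.0914) or day 11 replicate 1 (1.15, 0.126).

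MHCIIlow macrophages had 5.38, 6.32 and 6.60 untreated, 7.44, 7.33 and 7.19 at day 5, and 7.34, 8.35 and 7.77 at day 11. MHCIIhi macrophages had 8.82, 8.45 and 8.07 at day 11, against 6.71, 7.36 and 7.23 untreated. Treated and untreated arrays were separate in both. The call in MHCIIlow macrophages at day 5 was marginal (1.22 ± 0.41, adjusted p = 0.041) and was lost on leaving out untreated replicate 1 (0.86, adjusted p = 0.231) or 2 (1.33, 0.0589), or any day 5 replicate (1.16 to 1.28, 0.0728 to 0.114), with the replicate number as a block (1.20, 0.0575), or without the filter on low values (1.22, 0.0512). It was stronger at day 11 (1.72 ± 0.41, adjusted p = 0.00469), and was there lost only without untreated replicate 1 (1.36, adjusted p = 0.0549). In MHCIIhi macrophages the change was 1.35 ± 0.41 (adjusted p = 0.0214). It was lost without untreated replicate 1 (1.16, adjusted p = 0.0899) or 4 (1.42, 0.0501), or day 11 replicate 1 (1.16, 0.0936) or 2 (1.35, 0.0604).

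Monocytes and Langerhans cells did not pass for Mmp14. Monocytes had 7.47, 7.56 and 7.19 at day 5, against 6.34, 8.51 and 6.03 untreated, where the 8.51 is the array with fibroblast transcripts. The change of 0.45 ± 0.41 (adjusted p = 0.524) became 1.22 (adjusted p = 0.0253) without that array. Langerhans cells lay between 7.15 and 7.97 over all 9 arrays, with changes of 0.35 at day 5 (95% interval -0.48 to 1.19) and 0.16 at day 11 (-0.67 to 0.99). Set against the other 4 populations at day 11, the Langerhans response was lower by 1.44 ± 0.46 (adjusted p = 0.0317). That difference was lost in some fits leaving out 1 array, with adjusted p up to 0.116, and with the replicate number as a block (-1.38, adjusted p = 0.0511).

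Untreated CD11b+ DCs had the lowest Mmp14 mean, 5.04 against 6.92 in the other untreated populations (-1.87 ± 0.32, adjusted p = 4.17e-05), and did not overlap the next group. All other neighbours in the order, from 8.76 in day 5 moDCs to 6.10 in untreated MHCIIlow macrophages, overlapped. Untreated Langerhans cells were 0.91 ± 0.32 above the others (adjusted p = 0.0254), not without replicate 1 (0.96, adjusted p = 0.0656) or 3 (0.75, 0.149), nor with the replicate number as a block (0.84, 0.0541). Untreated MHCIIhi macrophages passed as higher without both arrays that stood apart (0.75, adjusted p = 0.0266, against 0.59 and 0.331 with all arrays).

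Mmp25, a protease held on the membrane by a lipid anchor and best known from human neutrophils, was highest in day 5 Langerhans cells and in CD11b+ DCs. Langerhans cells had 5.88, 5.54 and 5.86 untreated, 8.65, 9.26 and 8.57 at day 5, and 7.54, 7.66 and 7.48 at day 11. The 3 stages were separate, but the step of -1.26 between the treated stages did not pass. That step passed with array weights (-1.30, adjusted p = 0.016) and with only the groups compared in the fit (-1.26, 0.04). Mmp25 rose 8.36-fold at day 5 (3.06 ± 0.47, adjusted p = 5.28e-06) and 3.49-fold at day 11 (1.80 ± 0.47, adjusted p = 0.0052). The neutrophil marker list was at 3.81 to 4.05 on these Langerhans arrays, near the filter threshold, with Ly6g and Ltf below it, and 1 of its 8 tested genes was higher at each stage.

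In CD11b+ DCs Mmp25 had 8.10, 8.15 and 7.83 untreated, 8.31, 8.61 and 8.79 at day 5, and 8.70, 5.89 and 8.42 at day 11. The 5.89 is replicate 2, the array that stood apart. Changes of 0.54 and -0.36 (SE 0.47) did not pass, and the second became 0.53 (adjusted p = 0.569) without it. In the untreated state CD11b+ DCs exceeded the other populations at 8.03 against 5.55 (2.48 ± 0.37, adjusted p = 4.56e-06). Monocytes (4.41 against 6.27) and MHCIIlow macrophages (4.68 against 6.22) were lower, the second not without replicate 2 (-1.16, adjusted p = 0.0711). Day 5 Langerhans cells (8.83) and day 5 CD11b+ DCs (8.57) overlapped, and day 11 Langerhans cells followed CD11b+ DCs at 7.56. No point of the order separated all arrays above from all below.

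Timp1, a secreted inhibitor that also binds the Mmp9 proenzyme, was lowest in untreated Langerhans cells and rose there and in monocytes. Langerhans arrays read 5.64, 5.77 and 5.75 untreated, 9.25, 9.27 and 8.95 at day 5, and 8.59, 9.37 and 8.66 at day 11. Both treated groups were far above the untreated one and overlapped each other. The rise was 10.8-fold at day 5 (3.44 ± 0.57, adjusted p = 1.64e-05) and 8.93-fold at day 11 (3.16 ± 0.57, adjusted p = 6.46e-05).

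Monocytes also gained Timp1, with 9.05, 8.92 and 8.78 at day 5, against 4.73, 7.90 and 5.73 untreated. All treated arrays were above the untreated ones. The change was 2.80 ± 0.57 (adjusted p = 0.00107), and 3.68 (adjusted p = 3.85e-05) without untreated replicate 2, which holds the 7.90. In moDCs Timp1 had 9.90, 10.21 and 9.68 at day 5, against 8.19, 8.07 and 8.84 untreated. Those groups did not overlap, but the change of 1.56 ± 0.57 missed the threshold (adjusted p = 0.0687). It passed without both arrays that stood apart (adjusted p = 0.031), with array weights (1.66, 0.0216) and with only the groups compared in the fit (1.56, 0.0226). In both macrophage populations and in CD11b+ DCs the changes ran from -0.91 to 0.81 and did not pass.

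Untreated CD11b+ DCs had the highest Timp1 among untreated populations, at 9.16 against 6.85 (2.31 ± 0.44, adjusted p = 0.000206), and Langerhans cells were below the others at 5.72 against 7.54 (-1.82 ± 0.44, adjusted p = 0.00116). The lower level in monocytes (-1.34 ± 0.44, adjusted p = 0.0279) depended on single arrays, at -0.65 (adjusted p = 0.414) without replicate 1, -1.15 (0.169) without replicate 4 and -2.23 (0.000489) without replicate 2. The order of Timp1 means ran from 9.97 in day 5 CD11b+ DCs to 5.72 in untreated Langerhans cells, with no point at which every array above lay over every array below. Untreated moDCs were at 8.37 against 7.01 in the other untreated populations (1.36 ± 0.44, adjusted p = 0.0762), and passed without both arrays that stood apart (1.53, adjusted p = 0.0112).

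Timp2, the inhibitor that pairs with Mmp14, was highest in macrophages and near the filter threshold in untreated Langerhans cells. Its levels in Langerhans cells were 3.39, 3.48 and 3.84 untreated, 7.22, 6.20 and 5.25 at day 5, and 4.84, 6.37 and 5.59 at day 11. The untreated values straddle the filter threshold, 2 of the 3 lying under 3.77, and the treated arrays were all higher but widely spread. With untreated arrays under the threshold set to it, the rise was at least 5.38-fold at day 5 (fitted log2 change 2.65 ± 0.46, adjusted p = 4.14e-05) and at least 3.49-fold at day 11 (fitted 2.03 ± 0.46, adjusted p = 0.00135). Untreated Langerhans cells were at least 6.06 log2 units below the other populations (3.57 against 9.85, adjusted p = 4.71e-17).

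MHCIIlow macrophages had 11.24, 10.91 and 11.04 untreated, and the levels at day 5 (10.51 to 10.73) and day 11 (10.47 to 10.66) lay below these, with changes of -0.41 and -0.47 that did not pass. Untreated MHCIIlow macrophages stood above the other populations at 11.06 against 8.35 (2.71 ± 0.36, adjusted p = 3.49e-07), and MHCIIhi macrophages at 10.68 against 8.43 (2.25 ± 0.36, adjusted p = 2.32e-05). CD11b+ DCs had 7.80, 7.96 and 7.91 at day 5, against 9.61, 8.97 and 9.67 untreated. The groups were separate and the change was -1.53 ± 0.46 (adjusted p = 0.0337). The call was lost without untreated replicate 1 (-1.43, adjusted p = 0.108) or 4 (-1.40, 0.116), or any day 5 replicate (-1.49 to -1.57, 0.0724 to 0.106).

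Monocyte Timp2 was 8.00, 7.77 and 7.52 at day 5, against 7.38, 10.56 and 7.75 untreated. The change of -0.80 ± 0.46 did not pass and became 0.20 without replicate 2, which holds the 10.56. In the order of Timp2 means, all arrays of untreated MHCIIlow macrophages lay above all others, and the Langerhans groups lay below all others, the untreated one lowest. Without both arrays that stood apart, untreated monocytes were below the other populations (-1.28, adjusted p = 0.00193, against -0.29 and 0.646 with all arrays). Untreated moDCs (1.06, adjusted p = 0.006, against 0.86 and 0.215) and CD11b+ DCs (0.94, adjusted p = 0.00787, against 0.74 and 0.195) were then above the average of the others. That average holds the Langerhans level of 3.57 in both cases. The means of untreated moDCs (9.52) and CD11b+ DCs (9.42) lay below those of untreated MHCIIlow (11.06) and MHCIIhi (10.68) macrophages.

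**Figure D3:**
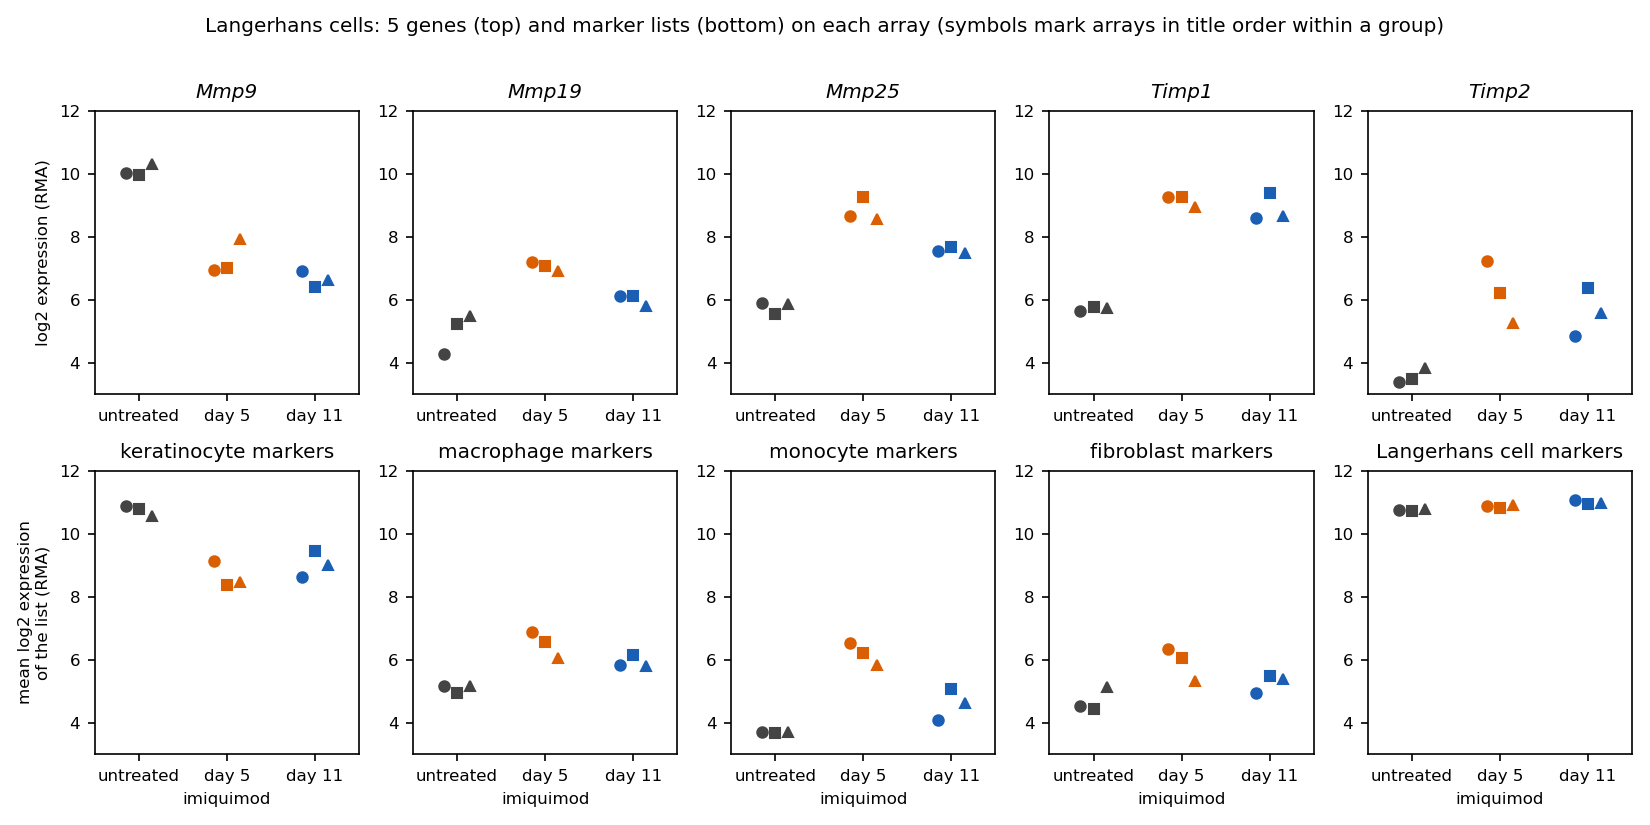
Langerhans cells untreated, at day 5 and at day 11 (horizontal axis), with the log2 level of 5 genes (top) and the mean log2 level of 5 marker lists (bottom) on each array; symbols mark the arrays of a group. Mmp9 and the keratinocyte list are highest untreated, at means of 10.10 and 10.75, while Mmp19, Mmp25, Timp1, Timp2 and the macrophage and monocyte lists are lowest there.

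A fit of only the groups compared, which has fewer samples to estimate the spread, kept every direction and ended 13 of the 70 calls, among them both between the treated stages. In the imiquimod comparisons these were Timp1 in monocytes at day 5 (adjusted p = 0.102) and 6 at day 11. The 6 were Mmp14 (0.0861) and Mmp19 (0.0584) in moDCs, Mmp14 (0.0907) and Mmp19 (0.0599) in CD11b+ DCs, Mmp12 in MHCIIhi macrophages (0.105) and Mmp19 in Langerhans cells (0.0539). In the untreated state they were Timp1 in monocytes (0.163) and Mmp14 in Langerhans cells (0.097). The last 2 were day 11 response differences of Mmp12, in MHCIIhi macrophages (0.106) and Langerhans cells (0.0844).

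Markers of other cells moved in the same Langerhans samples. The 10 keratinocyte markers averaged 10.87, 10.80 and 10.57 untreated, 9.14, 8.37 and 8.48 at day 5, and 8.62, 9.45 and 9.02 at day 11, with 7 of 10 lower at day 5 and 5 of 10 at day 11. The 6 monocyte markers averaged 3.71, 3.68 and 3.71 untreated, 6.54, 6.20 and 5.83 at day 5, and 4.08, 5.06 and 4.63 at day 11, with 6 of 6 higher at day 5 and 2 of 6 at day 11. In the treated groups Timp2 ranked the arrays in the same order as these monocyte markers did, and as the fibroblast markers did.

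The 9 macrophage markers averaged 4.93 to 5.18 untreated, 6.05 to 6.88 at day 5 and 5.79 to 6.15 at day 11, with 6 of 9 higher and 1 lower at day 5 and 3 higher and 1 lower at day 11. The 8 fibroblast markers averaged 4.44 to 5.13 untreated, 5.31 to 6.33 at day 5 and 4.93 to 5.48 at day 11, with 3 of 8 and then 1 of 8 higher. The 9 dendritic cell markers averaged 6.60 to 6.78 untreated, 7.70 to 8.34 at day 5 and 7.29 to 7.93 at day 11, with 5 of 9 higher at both stages (Flt3, Zbtb46, Kmo, Dpp4 and Ccr7). The 5 mast cell markers averaged 3.99 to 4.09 untreated, 4.41 to 5.37 at day 5 and 4.16 to 4.37 at day 11, with Kit alone higher at both. The 5 Langerhans markers themselves averaged 10.73 to 11.09 over the 3 stages. The part of the other cells' transcripts in the changes of Mmp9, Mmp19, Mmp25, Timp1 and Timp2 was not tested.

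Elsewhere, 3 of 5 Langerhans markers (Epcam, Cdh1 and Mfge8) were higher in CD11b+ DCs at both treated stages, with list means of 6.34 to 6.51 untreated, 8.40 to 8.60 at day 5 and 7.34 to 9.09 at day 11. The 6 monocyte markers averaged 5.48 to 6.65 untreated, 6.97 to 7.12 at day 5 and 6.32 to 6.85 at day 11, with 3 of 6 (Plac8, Vcan and Ifitm6) and then 2 of 6 (Plac8 and Vcan) higher. The keratinocyte list averaged 6.93 untreated, 5.78 at day 5 and 6.90 at day 11, with 5 of 10 lower at day 5, and 1 higher and 1 lower at day 11. Mmp14 was lowest on the day 11 array with the lowest Langerhans list mean, and the part of these transcripts in its rise was not tested. In moDCs the fibroblast list averaged 7.97 to 8.31 untreated, 5.66 to 7.06 at day 5 and 6.16 to 6.96 at day 11, with 3 and then 5 of 8 genes lower. Where Mmp14 rose in macrophages, 1 of 9 macrophage markers was higher and 1 lower in MHCIIlow cells at day 5, and 1 of 9 was lower in MHCIIhi cells at day 11. In MHCIIlow cells at day 11, 0 of 9 passed in limma, with 3 at an unadjusted p under 0.05. Other lists moved there: in MHCIIlow cells the fibroblast list averaged 6.32 to 6.75 untreated, 5.36 to 5.66 at day 5 and 5.53 to 5.71 at day 11, with 1 of 8 (Dcn) lower at both stages. Their mast cell list averaged 5.55 to 7.50 untreated, 4.82 to 5.47 at day 5 and 4.88 to 5.91 at day 11, with 2 of 5 lower at day 5. Their dendritic cell list had 4 of 9 lower at day 5, and 2 higher and 1 lower at day 11, and their keratinocyte list 5 and then 2 of 10 lower. In MHCIIhi cells the dendritic cell and keratinocyte lists moved as given beside Mmp9. The part of these transcripts in the rise of Mmp14 was not tested.

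The response of each population was also set against the mean response of the other 4 measured at that stage. Of 80 pairs, 16 passed, 11 higher and 5 lower, against 3.58% over all genes. Langerhans cells held 12 of them, 5 of 8 genes at day 5 (13.5% of all genes) and 7 of 8 at day 11 (12.4%). The response differences of a stage share samples with one another, since each draws on the responses of all populations measured at that stage. The untreated samples of the other populations carry another title letter than the Langerhans ones. At day 5 the Langerhans response of Timp2 was 2.65 against -0.89 elsewhere, a difference of 3.54 ± 0.52 (adjusted p = 3.27e-06), with the untreated Langerhans level under the filter threshold. For Mmp9 it was -2.81 against 0.19, a difference of -3.01 ± 0.27 (adjusted p = 1.72e-10). For Mmp25 it was 3.06 against 0.31 (2.75 ± 0.53, adjusted p = 0.000234), and for Mmp19 it was 2.06 against -0.54 (2.61 ± 0.34, adjusted p = 3.91e-07). In MHCIIhi macrophages at day 11 the responses of Mmp9 and Mmp12 were lower than elsewhere, 2 of 8 genes (1.46% of all genes). In moDCs and in CD11b+ DCs at day 11 that of Mmp9 was higher, 1 of 8 each (0.443% and 1.09% of all genes), against averages that include the Langerhans fall. In the remaining 5 tests 0 of 8 passed in limma: at day 5 in monocytes (1% of all genes), moDCs (0.301%), MHCIIlow macrophages (2.5%) and CD11b+ DCs (2.53%), and at day 11 in MHCIIlow macrophages (0.513%). At an unadjusted p under 0.05 these held 2, 2, 5, 3 and 1 of 8.

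**Figure D4:**
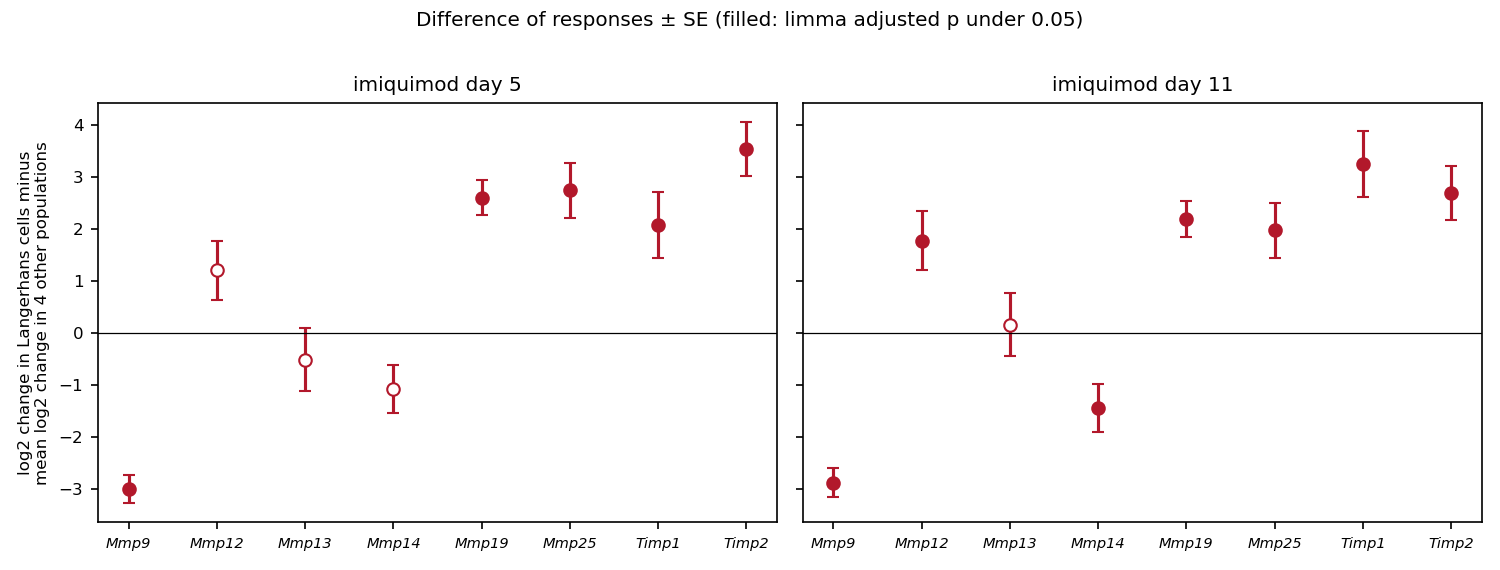
Log2 change in Langerhans cells minus the mean log2 change of the other 4 populations (vertical axis, ± SE) for each gene at day 5 (left) and day 11 (right); filled points passed at an adjusted p under 0.05. The filled points number 5 at day 5 and 7 at day 11, among them Timp2 at 3.54 and Mmp9 at -3.01 at day 5.

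The genes that rose in Langerhans cells and have a promoter entry are Timp1, Timp2 and Mmp25, and that of Mmp14, the gene that rose in dermal populations, is shown beside them. RefSeq entries (build GRCm38.p6) were matched for 6 of the 8 genes. Each line gives the 250 bases before the gene start, 5′ to 3′ on the gene's strand, from chrX:20869916-20870165 (+) for Timp1, chr11:118355412-118355661 (-) for Timp2, chr17:23645270-23645519 (-) for Mmp25 and chr14:54431348-54431597 (+) for Mmp14. Capitals mark AGGAAG on either strand, letters bound by ETS factors, and would mark TGANTCA, the AP-1 letters.
Timp1: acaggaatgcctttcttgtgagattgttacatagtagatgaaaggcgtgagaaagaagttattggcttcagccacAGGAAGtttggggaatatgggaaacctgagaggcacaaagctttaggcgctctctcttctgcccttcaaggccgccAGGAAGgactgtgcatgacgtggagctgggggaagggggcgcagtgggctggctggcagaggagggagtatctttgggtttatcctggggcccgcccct
Timp2: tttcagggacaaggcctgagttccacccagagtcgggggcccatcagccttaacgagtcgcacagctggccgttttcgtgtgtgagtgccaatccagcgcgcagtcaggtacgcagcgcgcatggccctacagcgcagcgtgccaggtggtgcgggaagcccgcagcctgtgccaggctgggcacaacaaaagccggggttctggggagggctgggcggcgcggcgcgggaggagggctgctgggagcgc
Mmp25: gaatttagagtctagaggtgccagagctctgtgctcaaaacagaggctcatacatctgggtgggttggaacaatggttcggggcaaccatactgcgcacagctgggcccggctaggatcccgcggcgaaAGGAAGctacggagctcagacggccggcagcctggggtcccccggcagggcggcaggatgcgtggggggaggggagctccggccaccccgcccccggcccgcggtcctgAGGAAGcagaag
Mmp14: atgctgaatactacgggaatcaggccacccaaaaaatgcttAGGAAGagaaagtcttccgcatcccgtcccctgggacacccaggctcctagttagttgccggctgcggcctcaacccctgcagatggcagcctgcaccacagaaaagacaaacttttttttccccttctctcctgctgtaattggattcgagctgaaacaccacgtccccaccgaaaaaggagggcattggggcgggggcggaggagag

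AGGAAG occurs 2 times in Timp1 (first bases at -175 and -99 from the start), 2 times in Mmp25 (-121 and -12), 1 time in Mmp14 (-209) and 0 times in Timp2, and 29.5% of 32851 promoters of this length hold it. TGANTCA is in none of the 4 windows and in 6.75% of all promoters. The promoter of Mmp13, which passed in no imiquimod comparison, holds it at -35. Mmp12, which passed as lower in MHCIIhi macrophages, holds it at -44 in the window chr9:7347124-7347373 but not in its other window. A match is a description of the sequence only.

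Other genes of the same protease systems were counted from lists of related genes, with the same test over all genes. Of 13 further metalloproteinases tested, out of 17 listed, 0 passed in Langerhans cells at either stage in limma, and 0 did at an unadjusted p under 0.05. Of all genes 16.1% passed there at day 5 and 17.7% at day 11, so a count of 0 in a list this small is no result about it. Mmp8, the neutrophil collagenase, rose at day 5 in moDCs (1.76 ± 0.32, adjusted p = 0.000438) and monocytes (1.24 ± 0.32, adjusted p = 0.00921). It also rose from under the filter threshold in MHCIIlow macrophages (4.88 against 3.16, at least 2.15-fold, adjusted p = 0.000269) and CD11b+ DCs (4.47 against 3.16, at least 1.63-fold, adjusted p = 0.00777). In moDCs Mmp2, the gelatinase that Mmp14 activates, fell at day 5 (-1.90 ± 0.57, adjusted p = 0.0244) and day 11 (-2.14 ± 0.57, adjusted p = 0.0134). Of 6 other inhibitors, 0 passed in Langerhans cells at either stage in limma, and 0 did at an unadjusted p under 0.05. Against the same shares of all genes, 16.1% and 17.7%, this too is no result about the list. Timp3, an inhibitor bound to matrix, fell in moDCs at day 5 (-2.36 ± 0.66, adjusted p = 0.0171) and day 11 (-3.29 ± 0.66, adjusted p = 0.00135), and in CD11b+ DCs at day 11 (-2.14 ± 0.66, adjusted p = 0.0326). In moDCs the fibroblast markers were lower at the same stages, and their part in the falls of Mmp2 and Timp3 was not tested.

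Among 15 ADAM and ADAMTS proteases, which shed membrane proteins or cut proteoglycans, 3 rose and 1 fell in Langerhans cells at each stage, against 16.1% of all genes at day 5 and 17.7% at day 11. Adam8 rose at day 5 (2.76 ± 0.20, adjusted p = 5.15e-13) and day 11 (1.87 ± 0.20, adjusted p = 6.91e-09), and Adamts1 fell at day 5 (-3.14 ± 0.46, adjusted p = 2.12e-06) and day 11 (-3.44 ± 0.46, adjusted p = 4.6e-07). The plasminogen system yields plasmin, which activates several metalloproteinase proenzymes. Of its 6 genes tested, 3 fell and 1 rose (Plgrkt) in MHCIIlow macrophages at day 5, where 14.2% of all genes passed, and 3 fell and 0 rose at day 11 (9.72%), with the activator Plau at 8.17 against 11.23 untreated (-3.06 ± 0.38, adjusted p = 5.17e-07) and its receptor Plaur at 8.22 against 10.48 (-2.26 ± 0.19, adjusted p = 1.01e-10). In Langerhans cells 1 rose and 1 fell at day 5, and 1 rose and 3 fell at day 11. There the activator inhibitor Serpinb2 was at 6.45 at day 11 against 10.61 untreated (-4.16 ± 0.49, adjusted p = 4.94e-08). Keratinocyte markers were lower and monocyte markers higher in the same treated Langerhans samples. Their part in the Langerhans changes of Adam8, Adamts1 and Serpinb2 was not tested.

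Of 11 binding partners and receptors, 1 rose and 1 fell in Langerhans cells at day 5 (16.1% of all genes passed), and 1 rose and 2 fell at day 11 (17.7%). Shares of this size are near the background and are no result about the list. Lcn2, the lipocalin that forms a complex with human MMP9, rose at day 5 (5.81 against 3.86 untreated, 1.95 ± 0.49, adjusted p = 0.00342) and at day 11 (5.59 against 3.86, 1.72 ± 0.49, adjusted p = 0.01). Thrombospondin-1, encoded by Thbs1, fell at day 5 (-2.06 ± 0.39, adjusted p = 0.000123) and at day 11 (-3.73 ± 0.39, adjusted p = 2.57e-09). The part of other cells' transcripts in these Langerhans changes of Lcn2 and Thbs1 was not tested. In monocytes at day 5 Lcn2 was at 8.14 against 3.98 untreated (4.16 ± 0.49, adjusted p = 5.65e-07).

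The genes whose group means followed each member most closely over the 16 groups were, by Pearson's r, Ssx2ip (0.96) and Gabbr1 (0.95) for Mmp9, Ccl17 (0.88) and Dhrs9 (0.88) for Mmp12, Stx4a (0.87) for Mmp13 and Gm807 (0.89) for Mmp14. For Mmp19 they were Bcl2l11 (0.96) and Emilin2 (0.95), for Mmp25 the receptor gene Ccr7 (0.95) and the chemokine gene Ccl22 (0.94), for Timp1 Jaml (0.92) and Adam8 (0.85), and for Timp2 the protease gene Ctsc (0.98) and Ap2a2 (0.97). Among the 8 genes themselves, Mmp25 and Timp1 had r = 0.74, Mmp12 and Mmp25 0.73, Mmp19 and Timp2 0.69, and Mmp9 and Mmp19 -0.77. These are descriptions over 16 points that share populations and stages.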

How the data were processed

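Expression was measured with mouse gene arrays (MoGene in the titles) from 1 to 20 ng of RNA after 2 rounds of amplification, per the labels' protocols. The authors deposited log2 values for 35556 probe sets, made with RMA and oligo per the submitters' processing notes, which also name limma; versions and genome build are not given in the sources used here. Of these, 21789 probe sets name 1 gene, 1621 several and 12146 none. Probe sets above the 40th percentile (log2 3.77) on at least 3 arrays were kept, and for genes with several the one with the highest mean, leaving 15591 genes. A model of 16 group means over all 48 arrays was fitted with limma 3.58.1 (lmFit and eBayes, R 4.3.3), tested on simulated data, with 30 contrasts and Benjamini-Hochberg adjustment over all genes in each; a call is an adjusted p under 0.05. Levels of different probe sets are not comparable. The genes and lists were chosen with earlier results of these data known. Related genes are named among those called with a log2 change of at least 1, up to 3 per list and contrast. Alternatives were another normalisation, filter, probe set rule, set of samples, variance model, replicate blocks and leaving out arrays. Promoters are from RefSeq (GRCm38.p6).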

Additional observations from a re-analysis of the deposited data

Results flagged for a closer look

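The response to imiquimod differed between populations, by a test of the difference itself in the same limma model, for 16 of 80 gene-population pairs. In Langerhans cells at day 5 the response minus the mean response of the other 4 populations was -3.01 for Mmp9, 2.61 for Mmp19, 2.75 for Mmp25, 2.08 for Timp1 (3.44 against 1.36, adjusted p = 0.0227) and 3.54 for Timp2. In Langerhans cells at day 11 it was -2.88 for Mmp9 (-3.46 against -0.58, adjusted p = 5.22e-10), 1.78 for Mmp12 (0.88 against -0.90, adjusted p = 0.034) and -1.44 for Mmp14 (0.16 against 1.60, adjusted p = 0.0317). At that stage it was also 2.19 for Mmp19 (1.02 against -1.17, adjusted p = 1.09e-05), 1.98 for Mmp25 (1.80 against -0.17, adjusted p = 0.0088), 3.25 for Timp1 (3.16 against -0.09, adjusted p = 0.000297) and 2.70 for Timp2 (2.03 against -0.68, adjusted p = 0.000242). At day 11 the difference was -1.18 for Mmp9 in MHCIIhi macrophages (-2.10 against -0.92, adjusted p = 0.0154) and -2.25 for Mmp12 there (-2.34 against -0.10, adjusted p = 0.0321). For Mmp9 it was 1.53 in moDCs (0.07 against -1.46, adjusted p = 0.00295) and 2.15 in CD11b+ DCs (0.56 against -1.59, adjusted p = 7.33e-06).

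The day 11 differences of Mmp12 in MHCIIhi macrophages, Mmp9 in MHCIIhi macrophages, Mmp12 in Langerhans cells and Mmp14 in Langerhans cells, and the day 5 difference of Timp1 in Langerhans cells, were each lost when single arrays were left out. Without untreated monocyte replicate 2, the array with fibroblast transcripts, 3 further day 5 differences passed in CD11b+ DCs and Langerhans cells: Timp2 in CD11b+ DCs (-1.93, adjusted p = 0.0015), Mmp14 in CD11b+ DCs (1.26, adjusted p = 0.0499) and Mmp14 in Langerhans cells (-1.28, adjusted p = 0.0134). Timp1 in MHCIIlow macrophages passed too (-2.09, adjusted p = 0.0296).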

How the results depend on the processing

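Of the 70 calls among the 8 genes, 70 were kept under quantile normalisation, 68 under median-centring, 69 without a filter, 70 under the stricter filter, 70 with probe sets averaged, 70 with a trended robust variance, 66 with array weights, 57 with the groups compared fitted alone and 69 without both arrays that stood apart. No call changed direction under any of these. Without each array in turn, 48 of 70 were kept in every fit, and the counts ran from 21 to 27 (imiquimod against untreated), 1 to 3 (day 11 against day 5), 25 to 32 (untreated populations) and 14 to 20 (response differences). The day 11 against day 5 count of 2 was 1 under median-centring, 1 without both arrays that stood apart, and both of its calls were lost, and 2 others gained, when only the groups compared were fitted. Values that turned direction, none of them a call with all arrays, included in monocytes Mmp14 at day 5 (-0.016 to 1.22 as untreated arrays were left out in turn), Timp2 at day 5 (-1.39 to 0.20, and 0.20 without both arrays that stood apart), and untreated Timp2 against the other populations (-1.28 to 0.31), and in CD11b+ DCs Mmp25 at day 11 (0.53 without both arrays). Fitting only the groups compared took calls over all genes in the imiquimod comparisons to 12589, against 19246, and those of day 11 against day 5 to 278, against 713, with 1888 under array weights; a separate fit has fewer samples. Median-centring moved the median gene by over 0.1 in moDCs between the stages (-0.119) and in the response differences of CD11b+ DCs (-0.154 at day 5, -0.108 at day 11) and Langerhans cells (0.113 at day 11). Samples with the same replicate number in the title were weakly alike in their deviations from group means (275 pairs, median r 0.0182, 28 over 0.1). Among them, 100 pairs also shared the first title letter (median r 0.0419, 17 over 0.1). Within letters B, F and G the same-numbered medians were 0.0419, 0.0431 and 0.0425, against -0.0213, -0.02 and -0.0238 for other numbers. A weak pairing within a letter is therefore possible. With a replicate block the 4 counts were 24, 2, 27 and 16 (fixed) and 24, 2, 28 and 16 (random); the fixed block ended 3 calls, all of Mmp14, and gained 2, while the random block ended none. With 3 arrays a group, levels near the 3.77 threshold, as for Mmp13 and untreated Langerhans Timp2, lie near background.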
